A study of Mus musculus with 6 samples.

Results

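The small subunit processome genes described here are 38 genes whose products assemble on the nascent ribosomal RNA precursor and carry out the early steps of making the small ribosomal subunit. They were chosen by gene symbol from a list of early 40S and 18S rRNA processing factors. All 38 were found among the 22030 genes of the count table, each under a single identifier, and all 38 passed the filter on low counts that left 13067 genes for testing. Their levels were measured by RNA sequencing in mouse mBMSCs (mesenchymal stem cells of bone marrow), which can give rise to bone, fat and cartilage. The 3 control libraries are titled siNC and labelled WT. The 3 others come from cells with RIOK3 knocked down. The design text speaks of stable lines made with lentivirus and elsewhere of a knockout, whereas the titles carry the prefix si, so the agent is not settled here. The age, sex and strain of the mice, the number of clones and the culture medium were not given in the sources used here, nor whether the libraries within a group were grown separately. The p-values therefore measure only the spread between these libraries, which may be technical.

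The small subunit processome is a large nucleolar particle built around the U3 small nucleolar RNA, which pairs with the ribosomal RNA precursor. Its proteins join in modules, in the order in which the precursor is transcribed: UTP-A first, then UTP-B and the U3 particle, then later factors. Within it the precursor folds, is modified and is cut at the ends of the future 18S rRNA. Proliferating cells, stromal cells in culture included, need this assembly to make new ribosomes. RIOK3, one of the atypical kinases named RIO, associates with small subunit precursors at later, cytoplasmic steps.

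Expression of the targeted gene was checked first. Riok3 was at 143, 193 and 135 CPM (counts scaled by library size, with TMM factors) in control replicates 1, 2 and 3, and at 32.1, 31.5 and 37.2 CPM in knockdown replicates 1, 2 and 3. Every knockdown library was below every control library, with a log2 fold change of −2.23 (SE 0.178, adjusted p = 0.000127 by edgeR's quasi-likelihood test with Benjamini-Hochberg adjustment). Log2 fold changes are given throughout as knockdown over control, and a gene was called when its adjusted p over all tested genes was under 0.05.

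Library totals lay between 28327612 and 32569544 counts, and the member with the fewest counts in a library, Krr1, still had 307. Control replicate 2 stood apart: its Spearman correlations of log2 CPM with the other controls were 0.963 and 0.968, against 0.996 between those. Results that rest on it are given below with and without it. Across the transcriptome 3508 genes fell and 2758 rose. Fold changes followed the base composition of the transcripts, being lower where adenine was high and GC content low, with a Spearman correlation of −0.71 for adenine and 0.70 for GC over 13043 genes, which share the same 6 libraries and are not independent. Of 13 stromal markers, 12 passed the filter and the list summed to 757 to 969 CPM in control, against 906 to 919.5 CPM in the knockdown. Thy1 was at 0.899 CPM, Eng at 1.80 CPM and Nt5e at 3.09 CPM in control, and Lepr was below the filter. Of these markers 5 fell, Vcam1 (−1.44), Pdgfra (−0.95), Nt5e (−0.91), Cd44 (−0.80) and Itgb1 (−0.61), and 5 rose, Col1a1 (1.39), Col1a2 (1.21), Pdgfrb (1.13), Eng (0.91) and Ly6a (0.78). Of 14 macrophage and leukocyte markers 2 passed the filter, Cd68 and Cd14, and without Cd68 the list summed to at most 2.48 CPM in any library.

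The fold changes of the members went with the adenine content of their transcripts, described further on, so coding stretches of members at both ends are shown first. For each gene the 60 bases with the most adenine were taken from the coding part of 1 transcript (GENCODE M21, GRCm38, coding strand). Adenine is in capitals. The first 3 genes had the largest falls. The other 3, shown for contrast, were the members with the highest fold changes of their role groups.
Esf1 (chr2:140168067-140168126, minus strand, exon 2 of 14, 38 adenines): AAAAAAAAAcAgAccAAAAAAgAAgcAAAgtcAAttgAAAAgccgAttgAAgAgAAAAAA
Mphosph10 (chr7:64377313-64377372, minus strand, exon 10 of 11, 34 adenines): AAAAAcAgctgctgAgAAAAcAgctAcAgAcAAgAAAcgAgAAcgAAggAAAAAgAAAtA
Dnttip2 (chr3:122285078-122285137, plus strand, exon 7 of 7, 33 adenines): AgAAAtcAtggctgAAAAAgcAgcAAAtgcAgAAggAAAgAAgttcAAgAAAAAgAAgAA
Pwp2 (chr10:78181122-78181181, minus strand, exon 7 of 21, 24 adenines): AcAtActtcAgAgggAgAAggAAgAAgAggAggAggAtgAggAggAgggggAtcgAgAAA
Imp4 (chr1:34444065-34444228, plus strand, exons 7 and 8 of 9 joined, 22 adenines): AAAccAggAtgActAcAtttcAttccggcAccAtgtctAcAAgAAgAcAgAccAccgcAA
Pdcd11 (chr19:47093801-47093860, plus strand, exon 3 of 36, 38 adenines): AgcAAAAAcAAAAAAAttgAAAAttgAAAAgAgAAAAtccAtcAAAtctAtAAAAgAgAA
Pdcd11 has as adenine-rich a stretch as Esf1, yet its whole transcript held 25.4% adenine against 36.8% in Esf1, and its log2 fold change was 0.13 against −4.47.

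Of the 38 members 22 fell, 1 rose and 15 were not called. The 22 are 57.9% of the members, where 26.8% of all tested genes were called lower. The single rise compares with 21.1% of all genes called higher. The median log2 fold change of the members was −0.53, against 0.01 over all tested genes, and 29 of 38 values were below 0. A fall of at least 2-fold was called for 10 members, where the share of all genes was 19.2%, and one of at least 4-fold for 5 members, where it was 8.64%. In 28 members, 73.7%, no control library overlapped a knockdown library in CPM, with 24 lower and 4 higher. Over all tested genes this held for 62.1%. Lower counts in bulk RNA do not tell fewer cells expressing a gene from less RNA per cell. Without control replicate 2, 23 members fell and 6 rose (36.5% and 35.1% of all tested genes) and the median was −0.50. When knockdown replicate 1 was left out 16 members fell (20.4% of all tested genes), and so it was when knockdown replicate 2 was left out (20.1%). The calls lost, Utp15, Nol11, Heatr1, Pwp2, Wdr3, Nol10 and Nat10, were the same in both cases. Scaled by library totals alone, without TMM factors, 16 members fell and 7 rose (Pwp2, Imp4, Rcl1, Noc4l, Rrp7a, Nol6 and Pdcd11), beside 21.5% and 32.8% of all genes. That scaling raised the median of all genes to 0.26, and the members' median stood 0.55 below it, as it did below that of the TMM scaling.

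The summed CPM of the members was 10196, 9834 and 9392 in control replicates 1, 2 and 3, and 4698, 4681 and 4735 in knockdown replicates 1, 2 and 3. This was 0.880 to 0.932% of all counts in control and 0.509 to 0.519% in the knockdown. A few genes carried much of the difference. Without Esf1, Mphosph10, Dnttip2, Krr1, Wdr43 and Nop14, the 6 with the largest changes, the sums were 5233 to 5568 CPM in control, against 3950 to 3977 CPM in the knockdown.

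**Figure D1:**
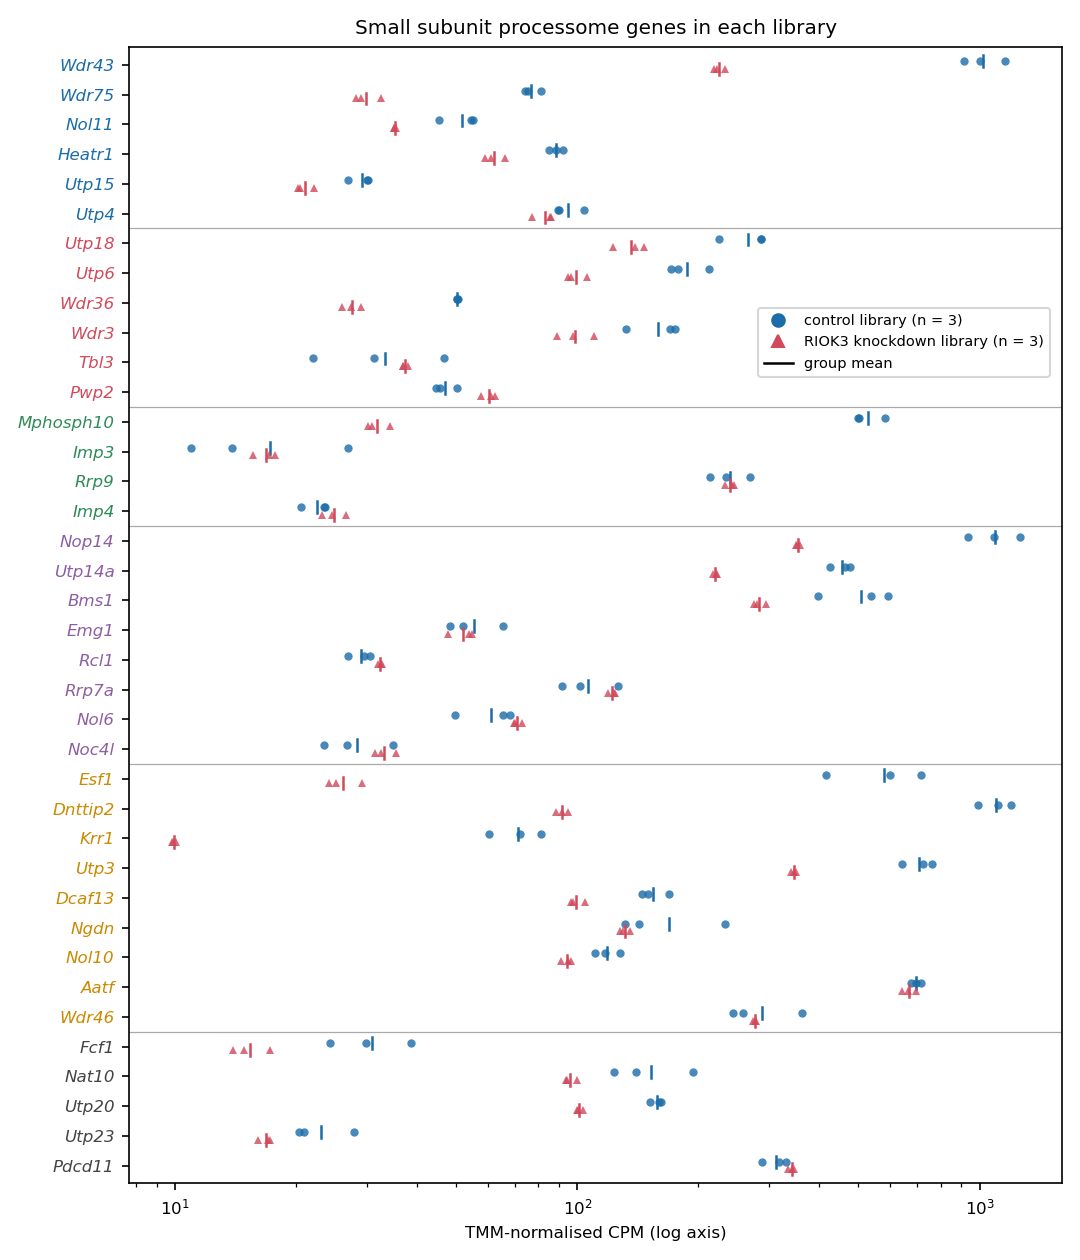
TMM-normalised CPM (log axis) of the 38 members in each of the 3 control libraries (circles) and 3 knockdown libraries (triangles), with a bar at each group mean, ordered by role group and fold change. Esf1, Mphosph10, Dnttip2, Krr1 and Wdr43 have the widest gaps between the groups, and 10 members have overlapping groups.

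The counts per role group that follow stand beside 26.8% lower and 21.1% higher of all tested genes. The groups hold few genes, and whether any of them differs from all genes was not tested. UTP-A, the module that binds the leading end of the ribosomal RNA precursor, had 5 of 6 genes lower. Wdr43 had the largest fall, from 1000, 1155 and 913 CPM in control replicates 1, 2 and 3 to 218, 223 and 233 CPM in the knockdown libraries (log2 fold change −2.19, SE 0.139, adjusted p = 4.66e-05). The lowest control library was far above the highest knockdown library. Wdr75, a WD-repeat partner of WDR43, was at 76.8 ± 3.95 CPM in control, against 29.9 ± 2.31 CPM in the knockdown (−1.36, SE 0.126). Heatr1, a large HEAT-repeat protein, was at −0.51 and Utp15 at −0.47, both called. Nol11, a vertebrate member of the module, was at 55.1, 45.3 and 54.3 CPM in control and at 34.9, 35.3 and 35.1 CPM in the knockdown (−0.55, SE 0.13, adjusted p = 0.0110). The groups did not overlap, but Nol11 turned to 0.35 and was called higher (adjusted p = 0.0414) once each library's trend on GC content was removed. Utp4, also known as cirhin, was at 89.8, 103.7 and 90.3 CPM in control and at 77.1, 86.0 and 85.6 CPM in the knockdown. Its groups did not overlap either, yet the difference of −0.19 (SE 0.125) was not called (adjusted p = 0.245).

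UTP-B, the next module to join, had 4 of 6 genes lower and 1 higher. Utp18, whose product recruits the RNA exosome helicase, was at 286, 225 and 286 CPM in control and at 146, 139 and 122 CPM in the knockdown libraries (log2 fold change −0.97, SE 0.148, adjusted p = 0.00191). Its lowest control library was well above its highest knockdown library. The WD-repeat genes Wdr36 and Wdr3 were at −0.87 and −0.69, and Utp6, a protein of helical repeats, at −0.92, all called. Pwp2, a tandem WD-repeat protein and the only member to rise, was at 44.6, 50.2 and 45.6 CPM in control and at 62.5, 57.6 and 61.1 CPM in the knockdown (0.37, SE 0.119, adjusted p = 0.0379). Its groups did not overlap, but the call was lost without any one of the libraries other than control replicate 2 (log2 fold changes 0.33 to 0.41). Tbl3, another WD-repeat protein, was at 0.16 with overlapping groups and at 0.48, called, without control replicate 2. With the GC trend removed the 6 genes of this module lay between −0.30 (Tbl3) and 0.40 (Utp18), and the smallest adjusted p among them was 0.0528 (Utp18).

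In the group of the U3 particle and the MPP10 complex 1 of 4 genes was lower. Rrp9 is its only protein of the U3 particle. The snoRNP core genes were kept on the separate list of other small subunit factors. Of these Nop58 (−3.52) and Nop56 (−1.05) were called lower, and Fbl (−0.20) and Snu13 (0.07) were not called. Mphosph10, the scaffold that holds IMP3 and IMP4, was at 583, 502 and 497 CPM in control and at 30.2, 30.8 and 34.2 CPM in the knockdown. Its mean was 16.6-fold lower (log2 fold change −4.05, SE 0.143, adjusted p = 1.86e-05) and the groups were far apart. Imp4, which with IMP3 helps U3 pair with the precursor, was at 23.6, 20.6 and 23.5 CPM in control and at 23.2, 26.6 and 24.6 CPM in the knockdown. These overlapped and were not called (0.14, SE 0.1304, adjusted p = 0.415). Imp3 was at −0.03 and Rrp9, a WD-repeat protein specific to the U3 particle, at 0.00, neither called. Without control replicate 2, which had the highest Imp3 level of the controls, Imp3 was called higher at 0.44. On the authors' per-length scale, the FPKM of Mphosph10 was 49.0 to 56.95 times that of Imp4 in the control libraries and 2.68 to 3.21 times that in the knockdown libraries. The length behind the FPKM was 3801 bases for Mphosph10 and 8790 bases for Imp4, whose coding part holds 873. The size of either ratio therefore depends on the authors' gene lengths.

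In the group of BMS1, NOP14 and UTP-C, 3 of 8 genes were lower (37.5%, beside 26.8% of all tested genes). Nop14, a structural protein that binds NOC4, was at 1258, 935 and 1088 CPM in control and at 351, 351 and 359 CPM in the knockdown libraries (log2 fold change −1.63, SE 0.146, adjusted p = 0.000192). Its partner Noc4l was at 23.4, 34.9 and 26.8 CPM in control and at 35.5, 31.4 and 32.5 CPM in the knockdown (0.22, SE 0.174, adjusted p = 0.320). The groups of Noc4l overlapped through control replicate 2, without which it was called higher at 0.40. The GTPase gene Bms1 was lower at −0.84, while Rcl1, whose product binds BMS1, was at 0.16 and not called. Utp14a, which activates the helicase DHX37, was at 455 ± 26.99 CPM in control, against 220.1 ± 2.29 CPM in the knockdown (−1.05, SE 0.114). It has a retrogene copy, Utp14b, with which reads could be shared and which had at most 148 counts in any library. The UTP-C genes Nol6 and Rrp7a and the rRNA methyltransferase gene Emg1 were at 0.22, 0.20 and −0.08, and were not called. Without control replicate 2 Rrp7a (0.34) and Rcl1 (0.20) were called higher and Nol6 was at 0.09.

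The group of AATF, SAS10 and bridging proteins had 6 of 9 genes lower, 3 of them with the largest falls of all members beside Mphosph10. Esf1, a nucleolar protein of early pre-rRNA processing, was at 716, 416 and 600.01 CPM in control and at 24.1, 25.1 and 29.1 CPM in the knockdown. Its mean was 22.1-fold lower (log2 fold change −4.47, SE 0.242, adjusted p = 3.10e-05), the largest fall among the members, with every library of one group far from the other. Dnttip2, the counterpart of yeast Fcf2, was at 1114, 1198 and 989 CPM in control and at 88.6, 91.6 and 94.9 CPM in the knockdown (−3.58, SE 0.139, adjusted p = 1.86e-05). Krr1, an RNA-binding protein with a KH domain, was at 81.3, 60.4 and 72.1 CPM in control and at 10.1, 9.79 and 9.89 CPM in the knockdown (−2.85, SE 0.156, adjusted p = 3.04e-05). Both genes kept well separated groups. Utp3, the SAS10 protein, was lower at −1.03, and Dcaf13 and Nol10 were lower at −0.63 and −0.33. Nol10 only just passed (adjusted p = 0.0498). AATF, neuroguidin and NOL10 form a complex of their own, and Aatf (−0.06) and Ngdn (−0.37) were not called. Ngdn was at 232 CPM in control replicate 2, against 132 and 142 CPM in the other controls, and without that library its log2 fold change was −0.06. Wdr46, a WD-repeat protein that links modules, was at 244, 362 and 259 CPM in control and at 273, 277 and 278 CPM in the knockdown (−0.06, SE 0.171, adjusted p = 0.785). Its control libraries lay on both sides of the knockdown ones, and without control replicate 2 it was at 0.14, not called.

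Of the nucleases, acetyltransferase and scaffold repeat proteins, 3 of 5 were lower. Fcf1, a PIN-domain nuclease of 18S maturation, was at 29.8, 38.5 and 24.3 CPM in control and at 14.9, 17.2 and 13.9 CPM in the knockdown libraries (log2 fold change −1.01, SE 0.198, adjusted p = 0.00542). The groups did not overlap. Utp23, a PIN-domain relative, was at −0.46 and just missed the call (adjusted p = 0.0502). Without control replicate 2 it was called lower at −0.30. Nat10, which acetylates cytidines of 18S rRNA, and Utp20, a very large repeat protein, were lower at −0.67 and −0.64. Pdcd11, the counterpart of yeast Rrp5, was at 331, 289 and 317 CPM in control and at 342, 347 and 334 CPM in the knockdown. Its groups did not overlap, but the difference was small and was not called (0.13, SE 0.116, adjusted p = 0.392).

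Levels can be compared between genes only per length, so the authors' FPKM values are used for the order of the members. The length behind each FPKM, worked out from the counts and library totals, was a median of 1.38 times that of the transcript used here. It was 7.17 times for Dcaf13, 4.60 times for Emg1, 1.51 times for Imp4 and 1.03 times for Utp3, so the order depends on the authors' gene lengths. FPKM is scaled to library totals alone, under which the median of all genes was raised as said above, so a member can stand higher in FPKM than its CPM ratio gives. In control the highest members were Utp3 at 383 ± 24.6, Nop14 at 353 ± 53.6, Dnttip2 at 293 ± 21.8 and Aatf at 214 ± 1.97 FPKM. Utp3 and Nop14 lay within each other's spread. The lowest were Imp4 at 2.33 ± 0.216, Utp15 at 4.39 ± 0.352, Wdr36 at 5.12 ± 0.101 and Tbl3 at 5.15 ± 1.85 FPKM. The control libraries of Tbl3 overlapped those of Utp15 and of Wdr36, while those of Utp15 and Wdr36 did not overlap each other. In the knockdown the order was led by Aatf at 248 ± 8.87, Utp3 at 227 ± 2.66, Nop14 at 138 ± 2.65 and Wdr46 at 102 ± 1.59 FPKM. Dnttip2 had dropped to 29.6 ± 1.22, Mphosph10 from 126 ± 10.7 to 9.16 ± 0.682, and Esf1 from 114 ± 30.5 to 6.24 ± 0.675 FPKM. Krr1, at 1.78 ± 0.0153 FPKM, was the lowest member of the knockdown. The 6 genes with the largest changes made up 42.4% of the summed FPKM of the members in control and 15.6% in the knockdown.

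**Figure D2:**
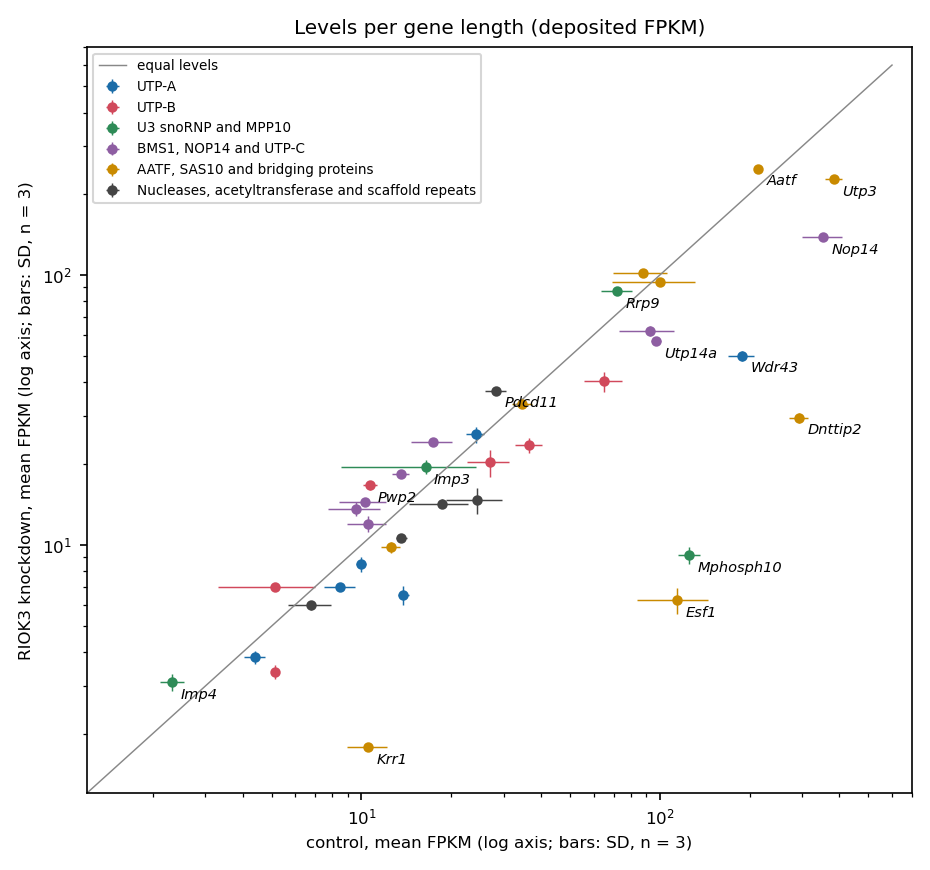
Mean FPKM of the 38 members in control (x, log axis) and in the knockdown (y, log axis), with SD over 3 libraries as bars and a line of equal levels. Esf1, Mphosph10, Dnttip2 and Krr1 lie far below the line and Aatf, Rrp9 and Imp4 slightly above it, on a scale where the median of all genes is also raised.

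Base composition went with the size of the change among the members. The transcripts of the 38 members held 19.5 to 36.8% adenine, with a median of 27.7% against 25.4% over all genes, and 39.0 to 59.8% GC, with a median of 47.5% against 50.4%. Across the 38 members the Spearman correlation of the log2 fold change was −0.90 with adenine content and 0.80 with GC content. With adenine in the coding part alone it was −0.87, and with transcript length 0.04. These points share the same libraries, and adenine and GC content are themselves related. The 6 members of 30.3 to 44.9% adenine, the top decile of all tested genes, were Esf1, Mphosph10, Dnttip2, Utp14a, Nop14 and Krr1. All 6 fell, with a median of −3.21, where 82.2% of all genes of that decile fell with a median of −2.04. In the decile below, all 7 members fell with a median of −1.01, beside 64.7% and −1.10 for all genes there. In the decile below that, 6 of 8 members fell with a median of −0.60, beside 49.2% and −0.62. In the 3 deciles of lowest adenine, up to 23.4%, there were 8 members, of which 1 was called, Pwp2, as higher, where 52.1%, 46.9% and 37.8% of all genes were higher. The medians of the 3, 2 and 3 members there were 0.00, 0.19 and 0.20, against 0.64, 0.57 and 0.42 for all genes. The 4 deciles between held 4, 3, 1 and 1 members. Their medians, or single values, were −0.07, −0.19, −0.46 (Utp23) and −0.51 (Heatr1), against 0.33, 0.17, −0.04 and −0.30 for all genes. The values of the members were thus close to the medians of all genes in the deciles ranked 8 and 9 and lower in the others. Those of the deciles ranked 1 to 7 rest on 1 to 4 members each. Whether members differ from other genes of like adenine content was not tested.

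**Figure D3:**
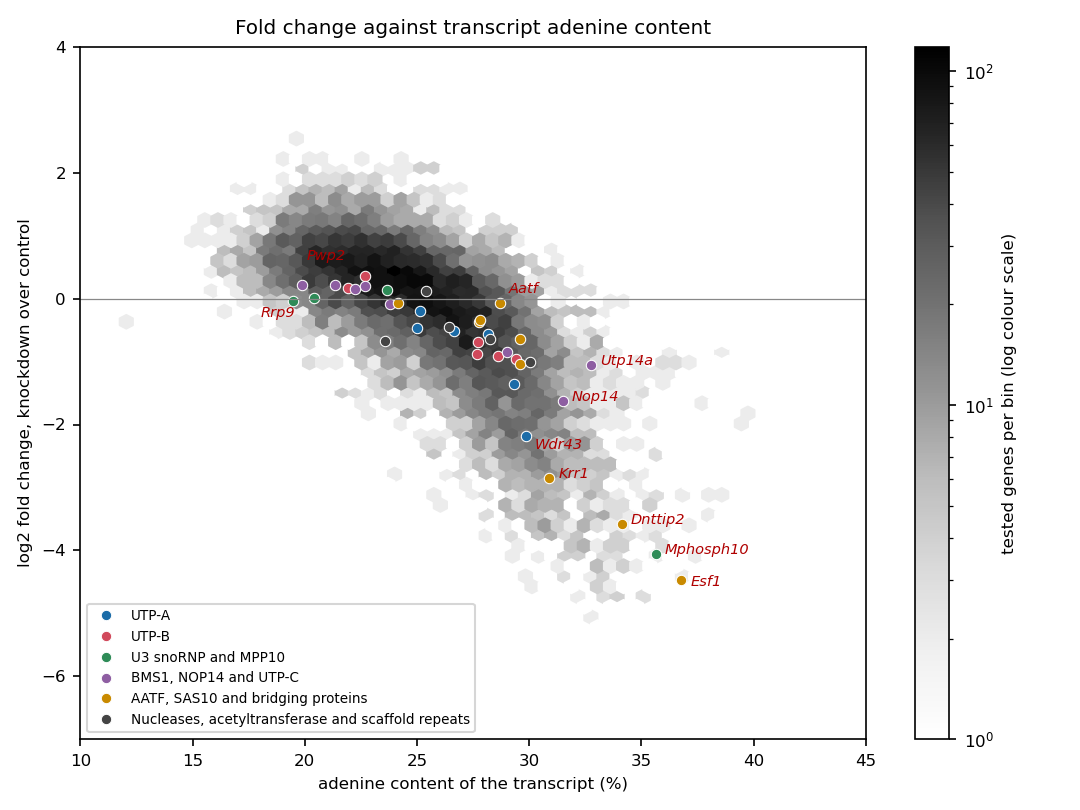
Log2 fold change against the adenine content of the transcript (%) for all tested genes (grey hexagons, count on a log scale) and the 38 members (coloured by role group). The values of the members tend to decrease with adenine content, from Imp3 at 19.5% adenine and −0.03 to Esf1 at 36.8% and −4.47. They do not decrease among the members of lowest adenine, where Pwp2 at 22.7% is at 0.37. The members of lowest adenine lie below most genes of like content.

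When the trend of each library on transcript GC content was removed, 13 members were lower (34.2%) and 2 higher, where 15.2% and 16.3% of all genes were lower and higher. The median of the members was then −0.25. Of the 22 members first called lower 11 stayed lower, 10 lost the call and Nol11 turned. Rrp9 and Wdr46 were now called lower, at −0.66 and −0.64, and Imp4 higher, at 0.47. Mphosph10 (−2.67), Dnttip2 (−2.58) and Esf1 (−2.20) still had the largest falls. With control replicate 2 left out as well, 16 members were lower and 10 higher, with a median of −0.10, beside 27.9% and 33.6% of all genes. When the trends on adenine content and length were removed along with that on GC content, 10 members were lower (26.3%) and 3 higher, beside 15.9% and 18.5% of all genes. The median was then −0.17. Mphosph10 was at −1.37, Dnttip2 at −1.30, Nat10 at −1.11, Krr1 at −1.09, Wdr43 at −0.92 and Esf1 at −0.86. These 6 were called lower in all 3 fits. Nop14, among the 6 largest falls without a correction, was at −1.40 with the GC trend removed and at −0.18, not called (adjusted p = 0.174), with all 3 trends removed. Utp14a (0.74), Aatf (0.53) and Dcaf13 (0.37) were called higher, 2 of which, Utp14a and Dcaf13, had been called lower without a correction. Esf1, Mphosph10, Dnttip2, Krr1 and Wdr43 were called lower in all 29 settings run, counting the uncorrected one. The share of all tested genes that kept a call with the GC trend removed, in all 3 fits or in all 29 settings was not counted. These counts of members therefore have no share of all genes beside them.

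**Figure D4:**
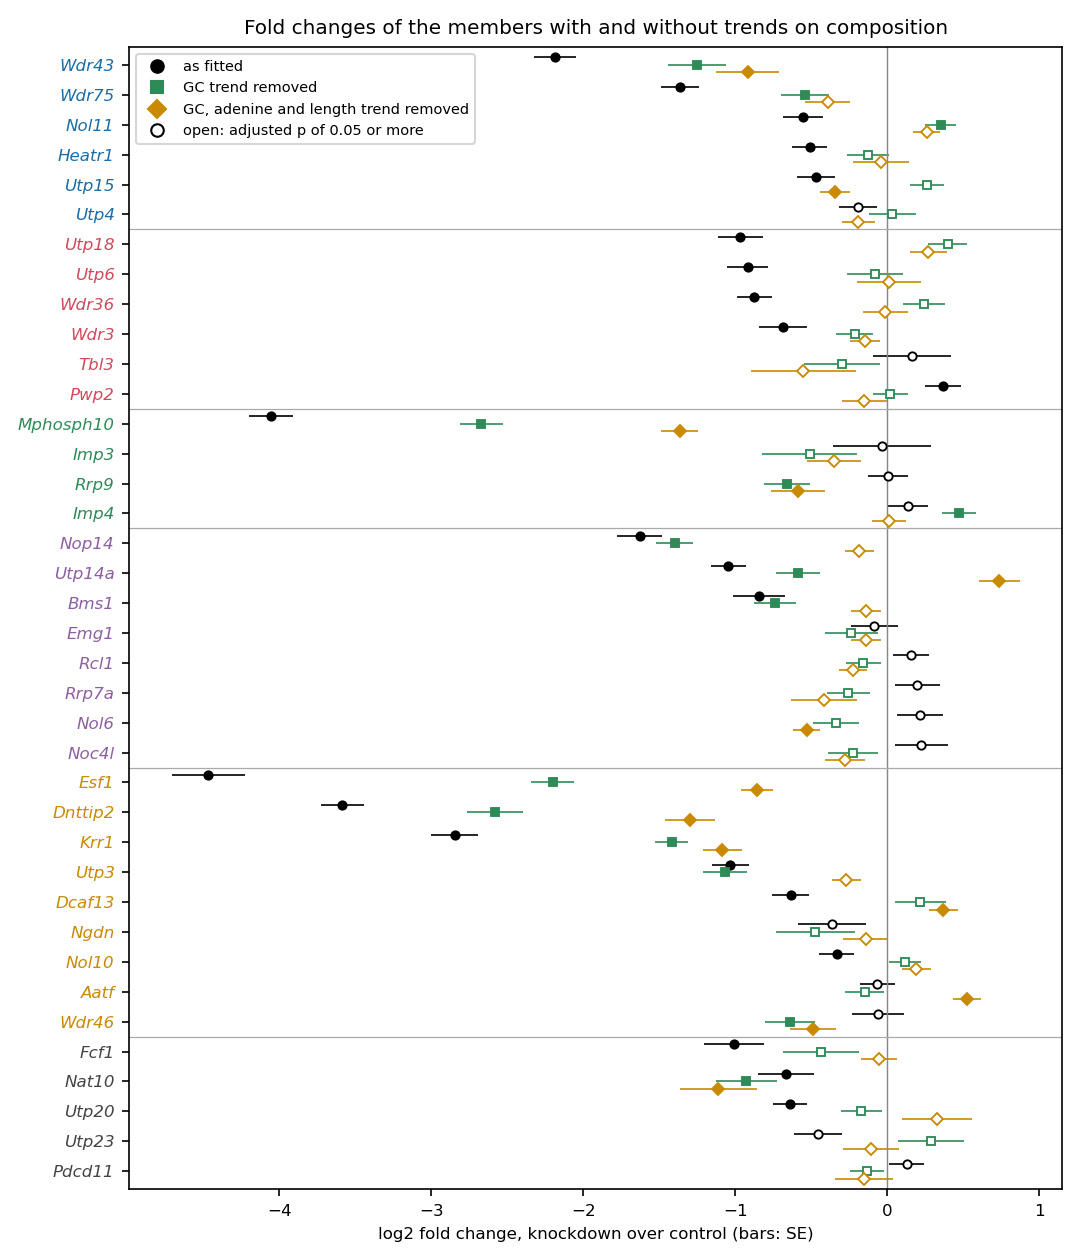
Log2 fold change of each member (bars: SE) as fitted (black circles), with the GC trend removed (green squares) and with the GC, adenine and length trends removed (orange diamonds); open symbols have an adjusted p of 0.05 or more. Of the 22 members called lower as fitted 11 stay so with the GC trend removed, and Esf1, Mphosph10, Dnttip2, Krr1, Wdr43 and Nat10 stay filled below 0 in all 3.

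Promoters of the members were searched for 4 short motifs of factors known at housekeeping promoters, on both strands in the 250 bases before the start site (RefSeq, GRCm38.p6). A promoter sequence was matched for 31 of 38 members. The ETS motif CCGGAAG was in 12 of 31 (38.7%), beside 13.6% of the promoters of tested genes. The E-box CACGTG, the core site of MYC and USF proteins, was in 6 of 31 (19.4%) beside 8.39%. The NRF1 motif GCATGCG was in 3 of 31 (9.68%) beside 5.33%, and the YY1 motif AAGATGG in 1 of 31 (3.23%) beside 4.20%. These are letter matches, not sites of binding. Among the 18 members called lower with a promoter sequence, 6 held the ETS motif, 2 the E-box and 3 the NRF1 motif. Among the 13 others these counts were 6, 4 and 0. Parts of the promoters of 2 members with large falls, of the overlapping-group member Wdr46 and of Pwp2, the member that rose, are shown with the motif letters in capitals, 5′ to 3′ on the gene's strand.
Esf1 (chr2:140170643-140170690, minus strand, 2 overlapping NRF1 matches on opposite strands): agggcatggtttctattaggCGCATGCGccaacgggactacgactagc
Mphosph10 (chr7:64392237-64392372, minus strand, an NRF1 match at −116 and an ETS match at −12 from the start site): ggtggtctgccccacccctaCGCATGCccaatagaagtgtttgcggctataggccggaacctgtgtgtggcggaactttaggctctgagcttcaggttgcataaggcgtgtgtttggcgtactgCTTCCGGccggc
Wdr46 (chr17:33940642-33940722, plus strand, 2 overlapping ETS matches on opposite strands and an E-box at −12): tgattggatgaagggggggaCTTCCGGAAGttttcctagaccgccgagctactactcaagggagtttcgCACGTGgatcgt
Pwp2 (chr10:78185150-78185190, minus strand, an ETS match at −21): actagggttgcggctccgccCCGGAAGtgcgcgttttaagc
The ETS letters thus occurred in promoters of a member that fell 16.6-fold, of one with overlapping groups and of one that rose.

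The rest of the ribosome assembly pathway is given from lists chosen by function. Of 33 other factors of small subunit assembly 14 fell and 5 rose (median log2 fold change −0.22). The helicase gene Ddx10 (−3.94), the snoRNP core gene Nop58 (−3.52) and the helicase gene Ddx52 (−2.05) were the lowest, and Nop9 (0.57) and Rbm19 (0.65) the highest, all called. Of 51 factors of large subunit assembly 22 fell and 2 rose, with a median of −0.28. Cebpz (−3.11), the export adaptor gene Nmd3 (−2.36) and the nucleostemin gene Gnl3 (−2.36) were the lowest, and Bop1 (0.50) and the helicase gene Ddx24 (0.51) the highest, all called. In the GC-removed fit Cebpz (−1.99) and Gnl3 (−1.49) stayed lower, and Nmd3 (−0.14), Bop1 (−0.11) and Ddx24 (0.26) were not called. Of 33 ribosomal proteins of the small subunit 3 fell, with a median of −0.29. Rps24 (−1.08) was the lowest and fell. Rps27a (−0.88), Rps14 (0.21) and Rps10 (0.26) were not called, and Rps10, at 2.19 CPM in control, belongs to genes whose reads can be split with pseudogene copies. Without control replicate 2, 9 ribosomal protein genes fell and 15 rose, with a median of 0.10, while the assembly factors stood at 16 lower and 9 higher (other small subunit factors) and 28 lower and 14 higher (large subunit factors). With the GC trend removed, 12 of the 33 other small subunit factors were lower (36.4%) and 2 higher. Of the 51 large subunit factors 16 were lower (31.4%) and 2 higher. The share of processome members lower was 34.2% in that fit. With the GC, adenine and length trends removed the shares lower were 24.2%, 25.5% and, for the members, 26.3%. The difference between these lists and the processome members was not tested.

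Other measures moved with the group. The 12 proliferation markers summed to 2425 to 3159 CPM in control, against 1627 to 1664 CPM in the knockdown, with 6 lower and 2 higher. Mki67 was the lowest of them, from 906 ± 268 to 16.8 ± 1.08 CPM, and Mcm2, a replication helicase subunit, the highest, at a log2 fold change of 0.74. Much of the drop of the sum lay in Mki67 and in Top2a, the latter from 655 to 209 CPM. Once the GC trend was removed, 3 of the 12 markers were lower and 1 higher, beside 15.2% and 16.3% of all genes. Their median went from −0.53 as fitted to −0.11. The mitochondrially encoded mRNAs summed to 13742 to 19709 CPM in control, against 6574 to 7032 CPM in the knockdown. With the GC trend removed these mRNAs turned, from 11 lower of 12 (median −1.62) to 1 lower and 7 higher (median 1.03). The part of either in the fall of the members was not tested. By the annotation on GRCm38, 16 members share exon bases with a gene on the opposite strand, from 4 bases in Fcf1 to 2122 in Tbl3. The strand setting of the counting was not given in the sources used here, so reads of such pairs may not be told apart. Esf1, Mphosph10 and Dnttip2 have no such overlap, Krr1 shares 352 bases with Glipr1, and Wdr43 holds 3 snoRNA genes within its span.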

How the data were processed

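Messenger RNA of 3 control and 3 RIOK3 knockdown libraries was sequenced. Total RNA (2 μg each) entered a stranded mRNA kit, products of 200 to 500 bp were enriched and paired-end reads of 150 bases were made, per the labels' protocols. The submitters' processing notes name HISAT2, MultiQC and the build GRCm39. How counts were made, with which strand setting and annotation, and any batch were not given in the sources used here. Both a table of raw counts per gene and a table of FPKM values, scaled by gene length and by library size and then rounded, were deposited by the authors. Columns were assigned to libraries by name.

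The test of the counts was run in edgeR 4.0.16 (R 4.3.3): filterByExpr, TMM scaling, glmQLFit with robust estimation and glmQLFTest, two-sided, without covariates, adjusted by Benjamini-Hochberg over the 13067 genes tested, whose counts are 99.9% of all. Levels are given as TMM-scaled CPM, as the mean ± SD of the 3 libraries of a group, and the SE of a log2 fold change rests on the variance estimates of the test. Composition trends were removed by loess (span 0.3, degree 1) of each library's log2 CPM against transcript GC content, or against GC content, adenine content and log2 length, entered as offsets. Composition, coding windows and gene overlaps come from GENCODE M21 on GRCm38, an earlier build than the submitters', matched by gene identifier for 13043 (99.8%) of the tested genes, with 1 transcript per gene. Promoters come from RefSeq (GRCm38.p6). Simulated counts with known changes were run through the uncorrected fit and the GC-removed fit. Recovery was required of the uncorrected fit only without a simulated GC trend, and of the GC-removed fit only with one. The fit with GC, adenine and length removed was not simulated. The libraries here do have GC trends, so this check does not cover the uncorrected fit on them. The other settings were RLE and upper-quartile factors, library totals alone, no filter or one of 5 CPM in 3 libraries, DESeq2 1.42.0, limma 3.58.1 (voom with sample weights, and limma-trend on log2(FPKM + 1) and log2(FPKM + 0.1)), the replicate number as a block, other composition offsets and each library left out, 28 in all.

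The members and lists were chosen with earlier results of these data known. Values in every library are given for the member with the lowest and the one with the highest fold change in each of 6 role groups, the 6 with the largest changes and any whose call turned with the GC trend removed. From each other list the 3 lowest and 2 highest are named. One gene that this rule takes is not reported here. Utp14b, Mki67, Mcm2, Myc, Nop56, Fbl and Snu13 stand outside that rule. So do the single stromal, endothelial and leukocyte markers and the further members described with fewer values. All of these were named after their values were seen.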

Additional observations from a re-analysis of the deposited data

How the results depend on the processing

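For the members, 1 value of a fold change per setting was compared with the uncorrected one, and a difference in sign between values called in neither fit was not counted as a reversal. The number of genes called, 6266, was 9475 with voom weights, 4118 with the GC trend removed, 4139 with GC content averaged over coding transcripts, 3102 with the GC trend and the replicate block, 4340 to 9592 with 1 library left out, and 1953 to 8227 with the GC trend removed as well. The number of members lower, 22, was 14 on unfiltered log2(FPKM + 1), 13 with the GC trend removed, 14 with GC and length, 10 with GC, adenine and length, 14 with GC averaged over coding transcripts, 10 with GC and the replicate block, 16 to 23 with 1 library left out, and 7 to 16 with the GC trend removed as well. All genes lower, 3508 as fitted, numbered in that order 2407, 1988, 2354, 2074, 1964, 1540, 2693 to 4891, and 1009 to 3728. The number higher, 1, was 2 under upper-quartile scaling, 7 with library totals alone, 0 without a filter, 5 with voom weights, 7 on log2(FPKM + 1) and on log2(FPKM + 0.1), and 4 on unfiltered log2(FPKM + 1). It was 0 with the replicate block, 2 with GC and with GC and length removed, 3 with GC, adenine and length and with GC averaged over transcripts, 0 with GC and the block, 0 to 6 with 1 library left out, and 0 to 10 with the GC trend removed as well. All genes higher, 2758 as fitted, numbered in that order 3771, 4280, 2657, 4672, 3966, 3902, 3929, 2390, 2130, 2810, 2414, 2175 and 1562. They numbered 1647 to 4701 with 1 library left out, and 944 to 4499 with the GC trend removed as well. The median of the members, −0.53, was −0.34 under upper-quartile scaling, −0.28 with library totals alone (the median of all genes was 0.21 and 0.26 there, and the members' 0.54 and 0.55 below it), −0.23, −0.25 and −0.23 on log2(FPKM + 1), log2(FPKM + 0.1) and unfiltered log2(FPKM + 1). It was −0.25 with GC removed, −0.23 with GC and length, −0.17 with GC, adenine and length, −0.30 with GC averaged over transcripts, −0.23 with GC and the block, −0.55 to −0.50 with 1 library left out, and −0.33 to −0.10 with the GC trend removed as well. Other small subunit factors lower numbered 8 with GC, adenine and length removed 12 to 16 with 1 library left out, and 5 to 18 with the GC trend removed as well. Large subunit factors lower numbered 13 with GC, adenine and length, 10 with GC and the block, 16 to 28 with 1 library left out, and 5 to 31 with the GC trend removed as well. Ribosomal proteins lower numbered 1 under upper-quartile scaling, with library totals alone and on log2(FPKM + 1) and log2(FPKM + 0.1), 0 on unfiltered log2(FPKM + 1), 6 with DESeq2, 7 with voom weights, 1 to 9 with 1 library left out, and 0 to 9 with the GC trend removed as well.

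Single members changed sign as follows, in the order GC removed, GC and length, GC averaged over transcripts, and GC with the replicate block. A change counted when either fit called the gene, so many of these values were not called in the new direction. Those called were Nol11 in the first 3, Utp15 and Utp18 with GC averaged over transcripts, Nol6 with GC and length, and Rrp9 in each. Rrp9 had been at 0.00, not called, as fitted. Utp15 was at 0.26, 0.28, 0.44 and 0.26, Nol11 at 0.35, 0.33, 0.54 and 0.35, Utp18 at 0.40, 0.32, 0.61 and 0.39, and Wdr36 at 0.24, 0.29, 0.23 and 0.25. Nol10 was at 0.12, 0.086, 0.25 and 0.12, Dcaf13 at 0.22, 0.20, 0.42 and 0.24, and Rrp9, called lower, at −0.66, −0.60, −0.63 and −0.64. Pwp2 was at −0.085 and Nol6 at −0.45 with GC and length removed. With GC, adenine and length removed Nol11 was at 0.26, Pwp2 at −0.15, Utp6 at 0.015, Utp18 at 0.27, Rrp9 at −0.59, Nol6 at −0.53, Utp14a at 0.74, Aatf at 0.53, Nol10 at 0.19, Dcaf13 at 0.37 and Utp20 at 0.33. Of these Rrp9, Nol6, Utp14a, Aatf and Dcaf13 were called in that fit and the others were not. Imp3 was at 0.38 with voom weights. With 1 library left out, and then with the GC trend removed as well, the values ranged as follows. They were for Utp4 from −0.23 to −0.12 and from −0.0574 to 0.19, for Utp15 from −0.52 to −0.44 and from 0.21 to 0.30, for Nol11 from −0.64 to −0.51 and from 0.32 to 0.37, for Pwp2 from 0.33 to 0.42 and from −0.0196 to 0.087 and for Utp6 from −0.98 to −0.82 and from −0.20 to 0.14. They were for Utp18 from −1.07 to −0.89 and from 0.34 to 0.48, for Wdr36 from −0.91 to −0.83 and from 0.15 to 0.37, for Rrp9 from −0.067 to 0.096 and from −0.76 to −0.51, for Imp3 from −0.28 to 0.44 and from −0.74 to −0.0375 and for Nol6 from 0.089 to 0.30 and from −0.47 to −0.25. They were for Nol10 from −0.38 to −0.28 and from 0.0755 to 0.16, for Dcaf13 from −0.68 to −0.56 and from 0.093 to 0.40, for Utp23 from −0.54 to −0.30 and from 0.14 to 0.57 and for Pdcd11 from 0.0765 to 0.17 and from −0.16 to −0.10. The cause of these changes was not tested.

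Whether replicate numbers pair the libraries was not given in the sources used here. Same-numbered libraries had correlations of their deviations from the group means of −0.08, 0.04 and 0.05. Libraries of unlike number had −0.11 to 0.12. With 3 libraries a group these correlations are not independent and cannot settle the question. With the replicate block 20 members fell and 0 rose, with the calls of Utp15, Pwp2 and Nol10 lost, and 5615 genes were called in all. With 3 libraries a group, an exact permutation test of a single value could not go below p = 0.1, so calls rest on the spread shared over genes. The composition of 1 transcript per gene, on an earlier build, limits the corrected values. The member with the fewest counts was Krr1, with 307 in its shallowest library.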

Other observations

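Myc, which encodes a transcription factor known for driving ribosome assembly genes, was at 152, 143 and 153 CPM in control replicates 1, 2 and 3 and at 108, 110.2 and 106 CPM in knockdown replicates 1, 2 and 3. The groups did not overlap, and the fall was called (log2 fold change −0.47, SE 0.109, edgeR adjusted p = 0.0109). Whether Myc had a part in the changes of the processome members was not tested.

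Utp14b, the retrogene copy of Utp14a, was called lower as well, from 3.83 ± 1.24 CPM in control to 0.954 ± 0.281 CPM in the knockdown (−2.003, SE 0.335, adjusted p = 0.00282), a larger fall than the −1.05 of Utp14a. Its knockdown libraries held 25 to 41 counts, against 70 to 148 in control. Utp14b was at −0.80 with the GC trend removed and at −0.51 with the GC, adenine and length trends removed, called in neither fit.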
